A study of Mus musculus with 8 samples.

Results

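A group of 10 genes of DNA replication licensing were followed in the liver of *Agpat3* wild-type (WT) and knockout (KO) mice. They are the 6 subunits of the minichromosome maintenance (MCM) helicase, *Mcm2*, *Mcm3*, *Mcm4*, *Mcm5*, *Mcm6* and *Mcm7*, the loading factors *Cdc6* and *Cdt1*, the Cdt1 inhibitor *Gmnn* (geminin) and *Orc1*, the largest subunit of the origin recognition complex. The set was selected on the log2 fold changes of KO over WT liver in these same arrays, so that contrast is given for the members as a description, without p-values, and where calls are counted nothing is read from the counts. All 10 genes were on the array, with 17 probes, among 22911 genes and 56605 probes in all. A probe was tested where the 4 arrays of either genotype, or of both, all held it well above background, which left 9 of the 10 genes (12 probes), among 14066 genes (29068 probes).

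Liver RNA of 4 WT and 4 *Agpat3* KO male mice, all 10 weeks old and on the C57BL/6 background, was hybridized to one-color Agilent arrays, 1 for each mouse. *Agpat3* encodes an enzyme that attaches fatty acids, among them docosahexaenoic acid, to lysophosphatidic acid on the way to membrane phospholipids, and it was lost in the whole animal rather than in hepatocytes alone. The values are log2 signals relative to each array's own 75th percentile, so that 0 is the level of that percentile, and a difference of 1 is a doubling of the signal. The 8 arrays shared 1 slide, with the WT arrays in 1 row and the KO arrays in the other, so that slide row and genotype cannot be told apart. On each array, between 29888 and 31892 probes were well above background.

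Licensing is the step at which a chromosome origin is made ready for a single round of replication. In G1 phase the origin recognition complex, Cdc6 and Cdt1 load the ring of Mcm2 to Mcm7 onto DNA in an inactive form, and kinases later switch the ring on by recruiting Cdc45 and the GINS complex. Geminin, and the destruction of Cdt1 through the CRL4 ubiquitin ligase whose substrate receptor is Dtl, prevent loading again in the same cycle, and many of these genes are classical targets of E2F transcription factors. Most hepatocytes of an adult liver are quiescent and enter the cell cycle after injury or loss of tissue.

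The promoters of the members are shown here because these genes are known for shared E2F control. RefSeq windows of build GRCm38.p6, from 250 bases before to 50 bases after the start, were given for 8 of the 10 members (9 windows, 2 of them for *Mcm7*). The words TTTGGCGC, TTTCGCGC, TTTCCCGC and TTTGCCGC, which are E2F-like, were searched on both strands, and 2 words on opposite strands may share bases. In the stretches that follow, read 5′ to 3′ on the strand of the gene, capitals mark the words and lower case the bases around them. *Mcm7* has a further TTTCGCGC after its start, 17 to 24 bases on, which is outside the stretch shown. They lie at chr1:20820266-20820295 (minus strand) for *Mcm3*, chr8:75109331-75109392 (plus) for *Mcm5*, chr1:128359720-128359840 (minus) for *Mcm6*, chr5:138172016-138172073 (minus) for *Mcm7*, chr11:98907988-98908045 (plus) for *Cdc6*, chr8:122568036-122568064 (plus) for *Cdt1* and chr4:108579402-108579459 (plus) for *Orc1*.
Mcm3: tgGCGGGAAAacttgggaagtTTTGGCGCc
Mcm5: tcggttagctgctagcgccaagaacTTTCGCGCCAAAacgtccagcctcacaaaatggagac
Mcm6: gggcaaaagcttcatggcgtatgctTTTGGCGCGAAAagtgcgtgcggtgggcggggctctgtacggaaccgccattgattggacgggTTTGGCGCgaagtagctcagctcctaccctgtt
Mcm7: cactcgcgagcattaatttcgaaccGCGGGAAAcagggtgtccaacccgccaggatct
Cdc6: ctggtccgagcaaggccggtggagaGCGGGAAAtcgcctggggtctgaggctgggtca
Cdt1: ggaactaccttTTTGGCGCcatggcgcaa
Orc1: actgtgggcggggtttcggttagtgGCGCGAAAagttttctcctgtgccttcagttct

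At least 1 of these words was found for 7 of the 8 members, all but *Mcm2*, against 704 of 27025 genes with a window (2.6%). *Mcm5* and *Mcm6* each held a run in which words on both strands overlapped, and *Mcm6* held a further copy nearer to its start. The words were also found for 7 of 18 G1/S regulators (38.9%), 7 of 21 replisome genes (33.3%) and 4 of 19 other origin and MCM-related genes (21.1%), for 2 of 8 genes of helicase activation (25%), for 1 of 19 genes of G2/M and mitosis (5.26%), and for 0 of 6 genes of nucleotide supply and 0 of 8 p53 targets. The word CCAAT, on either strand, was found for 6 of the 8 members (75%), all but *Cdc6* and *Cdt1*, and for 17 of 19 genes of G2/M and mitosis (89.5%) and 6 of 8 p53 targets (75%), against 41.1% of all genes. In the remaining lists that share was between 33.3% (nucleotide supply) and 63.2% (other origin and MCM-related genes). A match is a stretch of letters and was not tested for binding.

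**Figure D1:**
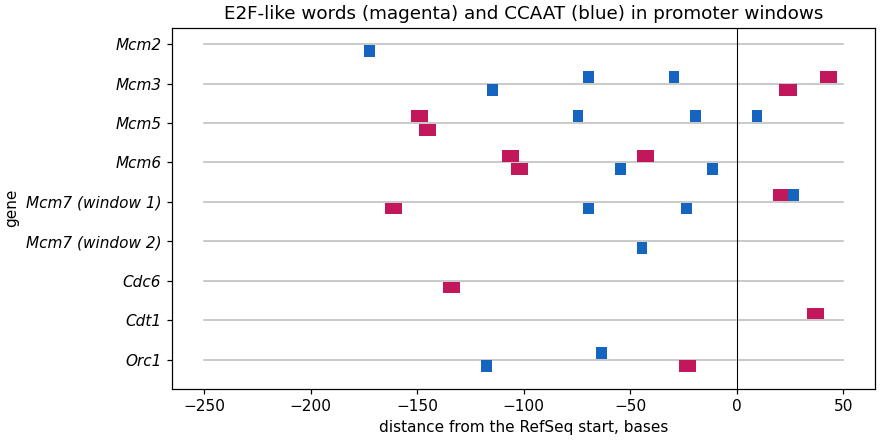
Positions of the E2F-like words (magenta) and of CCAAT (blue) in the 9 promoter windows of 8 members, with the distance from the RefSeq start in bases on the horizontal axis; marks above a line are on the strand of the gene and marks below it on the other strand. E2F-like words lie in the windows of all genes shown but *Mcm2*, and the second window of *Mcm7* holds only CCAAT.

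*Agpat3* was at log2 signals of 5.65, 5.66, 5.80 and 5.88 in WT mice 1 to 4 and at -0.48, 0.02, -0.58 and -0.47 in KO mice 1 to 4. The genotypes lay far apart, with a log2 fold change of -6.12 (limma, adjusted p = 4.47e-07; exact permutation test over the 70 assignments of the mice, two-sided p = 0.0286, the smallest that 4 against 4 mice can give). A further *Agpat3* probe had a log2 fold change of -5.69, and the labels thus match the targeted gene in all 8 mice.

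Signals of 5 of the 6 helicase subunits were higher in every KO mouse than in every WT mouse. The share was 3.85% for all genes tested, but this contrast chose the members, so that nothing is read from that count. *Mcm2*, a subunit on the face of the ring that binds histones, was at log2 signals of -2.13, -2.18, -2.55 and -2.23 in WT mice 1 to 4 and at -1.67, -1.28, -0.71 and -1.56 in KO mice 1 to 4. No KO value reached down to the WT values, and the log2 fold change was 0.97 (SE 0.21), a 1.96-fold difference. With normexp background correction it was 0.54, and *Mcm2* was no longer among the members called. Its means were -2.27 ± 0.19 in WT and -1.30 ± 0.43 in KO liver (SD, n = 4 each).

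*Mcm3* had 3 probes, all of which were tested. On the brightest, the log2 signal was -0.17, 0.09, -0.07 and 0.28 in WT mice 1 to 4 and 0.60, 0.98, 1.36 and 0.59 in KO mice 1 to 4. The groups did not overlap, and the log2 fold change was 0.85 (SE 0.19). The other probes of *Mcm3* had log2 fold changes of 0.80 (SE 0.17) and 0.96 (SE 0.19), so that all of them differed in the same direction by a similar amount.

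*Mcm4*, *Mcm6* and *Mcm7* form the part of the ring with the main helicase activity. *Mcm4* was at log2 signals of 0.80, 0.96, 0.72 and 0.75 in WT mice 1 to 4 and at 0.99, 1.39, 1.94 and 1.1 in KO mice 1 to 4. The groups were separated only narrowly, between WT mouse 2 and KO mouse 1, and the log2 fold change was 0.55 (SE 0.19). *Mcm6* was at 1.31, 1.69, 1.45 and 1.85 in WT mice 1 to 4 and at 2.04, 2.58, 3.19 and 2.05 in KO mice 1 to 4. All KO values lay above the highest WT value, and the log2 fold change was 0.89 (SE 0.26). A second *Mcm6* probe was well above background on 0 WT arrays and 1 KO array, with log2 signals of -6.24 to -5.59 in WT and -4.68 to -3.44 in KO mice, and was not tested.

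*Mcm7* did not follow the other subunits in the contrast of the genotypes. Its log2 signals were 2.23, 2.08, 1.94 and 2.25 in WT mice 1 to 4 and 2.15, 2.32, 2.45 and 2.09 in KO mice 1 to 4. The groups overlapped between 2.09 and 2.25, and the log2 fold change was 0.13 (SE 0.11). The other *Mcm7* probe was well above background on 2 WT arrays and 0 KO arrays, at -4.37 to -4.04 in WT and -5.25 to -4.31 in KO mice, so that it leaned the opposite way at signals near background.

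*Mcm5*, which with *Mcm2* forms the gate through which DNA enters the ring, was at log2 signals of -2.24, -1.36, -1.53 and -1.27 in WT mice 1 to 4 and at -1.15, -0.66, -0.24 and -1.01 in KO mice 1 to 4. The groups did not overlap, but WT mouse 1 lay well below the other WT mice. The log2 fold change was 0.84 (SE 0.26), 0.62 without WT mouse 1, and 0.49 with normexp background correction.

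**Figure D2:**
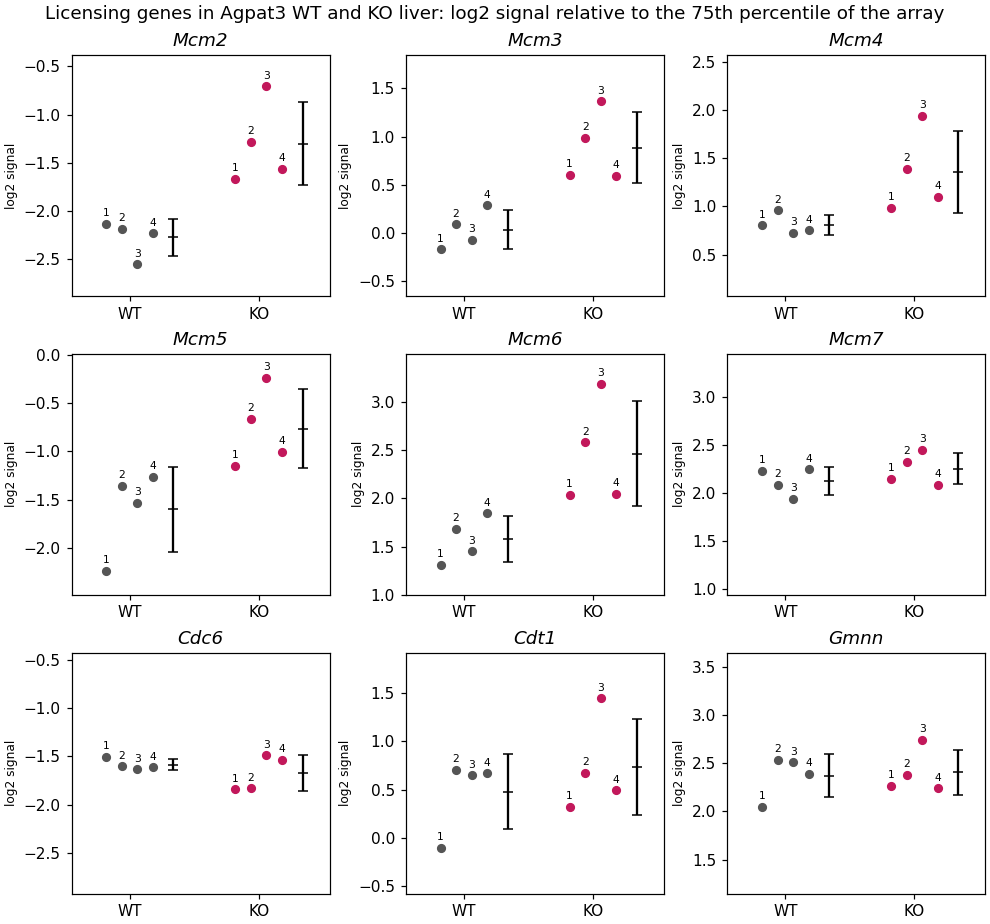
Log2 signal relative to each array's 75th percentile (vertical axis) for the 9 members above background, with 1 point for each mouse, numbered by replicate, and bars for the mean and SD of 4 mice per genotype. *Mcm2* to *Mcm6* are separated between WT and KO, whereas *Mcm7*, *Cdc6*, *Cdt1* and *Gmnn* overlap.

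The loading factors and their inhibitor overlapped between the genotypes. *Cdc6*, the ATPase that brings the MCM ring to the origin complex, was at log2 signals of -1.5, -1.60, -1.63 and -1.61 in WT mice 1 to 4 and at -1.84, -1.83, -1.49 and -1.54 in KO mice 1 to 4. KO mice 1 and 2 lay below all WT mice and KO mouse 3 above them, for a log2 fold change of -0.09 (SE 0.10), which was -0.03 without either KO mouse 1 or KO mouse 2 and -0.15 without KO mouse 3. *Cdt1*, which escorts the ring to the origin, was at -0.11, 0.70, 0.65 and 0.67 in WT mice 1 to 4 and at 0.32, 0.68, 1.45 and 0.49 in KO mice 1 to 4. WT mouse 1 was low and KO mouse 3 high, with the other mice intermixed, and the log2 fold change was 0.26 (SE 0.27), 0.06 without WT mouse 1 and 0.02 without KO mouse 3.

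*Gmnn*, which binds and blocks Cdt1, was at log2 signals of 2.05, 2.54, 2.51 and 2.39 in WT mice 1 to 4 and at 2.26, 2.38, 2.74 and 2.24 in KO mice 1 to 4. The ranges overlapped between 2.24 and 2.54, with log2 fold changes of 0.03 (SE 0.15) on this probe and 0.08 (SE 0.15) on the other. The sign of the first was negative after median scaling of the arrays and when WT mouse 1 or KO mouse 3 was left out (-0.00, -0.07 and -0.08). *Orc1* stayed below the limit for well above background on all 8 arrays with both of its probes, and a second *Cdc6* probe was likewise dim on all 8 arrays, so that these probes were not tested and their differences are not given.

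At the thresholds used here, a fold change over 1.5 and a limma adjusted p under 0.2, 2 of the 9 members tested (*Mcm2* and *Mcm3*) were called higher in KO liver, against 1.01% of all genes, and 0 were called lower, against 0.754%. The unpaired t test called 1 of the 9, against 0.988% of all genes. By probe, 4 of 12 were called higher (0.939% of all probes) and 0 lower (0.726% of all probes). The KO values lay wholly above the WT values for 5 of the 9 genes, against 3.85% of all genes, and for 7 of the 12 probes, against 3.69% of all probes, and wholly below them for 0 genes, against 5.81%. The log2 fold change was positive for 8 of the 9 members and for 42.1% of all genes, with medians of 0.55 and -0.03. Since this contrast chose the members, nothing is read from these counts. The number of members called moved between 0 and 3 with the settings and the mice used. In whole liver, more cells with licensing mRNA and more of that mRNA in each cell cannot be told apart.

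For most of the helicase genes the KO mice differed among themselves more than the WT mice did, but not for *Mcm5* (SD 0.406 in KO and 0.441 in WT mice). KO mouse 3 had the highest signal of all 8 mice for 9 of 9 members, and the lowest KO value belonged to KO mouse 1 for 6 genes and to KO mouse 4 for 3. Averaged over *Mcm2* to *Mcm7* after each gene was centred on its mean, the log2 signal was 0.03, 0.43, 0.87 and 0.08 in KO mice 1 to 4 and -0.50, -0.25, -0.47 and -0.19 in WT mice 1 to 4. KO mice 1 and 4 were thus close to each other and much nearer to the WT mice than KO mouse 3 was. The median SD of *Mcm2* to *Mcm7* was 0.416 in KO and 0.195 in WT mice, beside 0.141 and 0.149 for all genes tested. Without KO mouse 3 the log2 fold changes were 0.77 for *Mcm2*, 0.69 for *Mcm3*, 0.35 for *Mcm4*, 0.66 for *Mcm5*, 0.65 for *Mcm6* and 0.06 for *Mcm7*, and *Mcm2* and *Mcm3* were the members called.

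**Figure D3:**
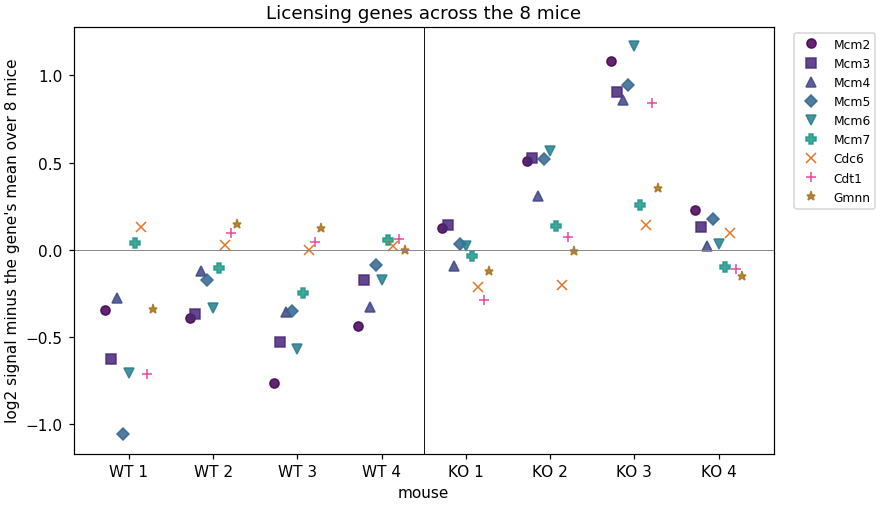
Log2 signal of each member minus the gene's mean over the 8 mice (vertical axis), by mouse, with the WT mice on the left and the KO mice on the right. All 9 members are highest in KO mouse 3, and the *Mcm2* to *Mcm6* points of the WT mice lie below 0.

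The helicase subunits also varied together over the 8 mice in their deviations from the genotype mean, a measure without the difference of the genotype means. Over the 15 pairs among *Mcm2* to *Mcm7*, the Pearson correlation of these deviations over the 8 mice had a median of 0.85 (0.36 to 0.99), highest for *Mcm3* with *Mcm6* (0.99) and lowest for *Mcm5* with *Mcm7* (0.36). *Mcm7* thus had a deviation correlation of 0.74 with *Mcm6* and 0.75 with *Mcm3*, although its genotype means were close. *Cdt1* and *Gmnn*, opposed in function, were correlated at 0.97. The 18 pairs of a helicase gene with *Cdc6*, *Cdt1* or *Gmnn* had a median of 0.58 (0.12 to 0.96), in which the highest was *Mcm5* with *Cdt1* and the lowest *Mcm5* with *Cdc6*. For comparison, 1 in 10 of the genes above background on all arrays was taken, and the 918690 pairs among these had a median of 0.03 (-0.999 to 0.998). In these deviations some genes of the other lists also followed the mean of *Mcm2* to *Mcm7*, among them *Pcna* (0.95), *Ccne1* (0.93) and *Chaf1b* (0.93). Others of those lists went the opposite way, among them *Rbl2* (-0.84), *Hmmr* (-0.76) and *Recql4* (-0.58). Some markers of other cells followed the mean too. They were *S100a8* (0.81) and *S100a9* (0.80) of neutrophils, *Hbb-bt* (0.81) and *Hba-a1* (0.78) of erythroid cells and *Adgre1* (0.77), *Csf1r* (0.76) and *Clec4f* (0.76) of macrophages, among others. Other markers of the same lists did not follow it. *Camp* of neutrophils was at 0.02, and *Klf1* and *Alas2* of erythroid cells were at -0.12 and -0.75. The part of those cells in the covariation was not tested. All these values come from the same 8 arrays, so that they share each array's RNA and scaling, and KO mouse 3 was the highest mouse for every member in them. For most helicase genes the KO mice weigh more, with a median SD over *Mcm2* to *Mcm7* of 0.416, beside 0.195 in WT mice. Correlations over the WT mice alone were not computed. The order of the WT mice differed between genes, with *Mcm2* lowest in WT mouse 3 (-2.55) and *Mcm5* lowest in WT mouse 1 (-2.24).

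**Figure D4:**
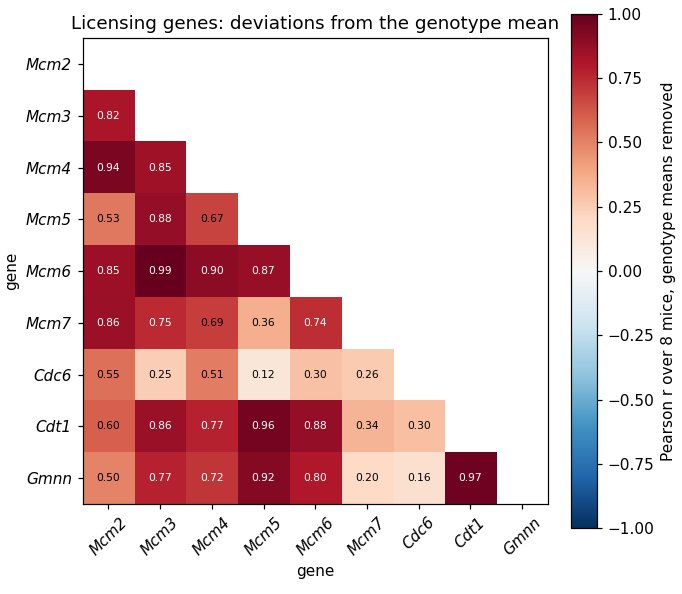
Pearson correlation between members over the 8 mice after the genotype means were removed (color scale from -1 to 1). Values among *Mcm2* to *Mcm7* lie between 0.36 and 0.99, *Cdt1* and *Gmnn* reach 0.97, and *Cdc6* has the lowest values.

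Of 13549 genes compared, those whose signals followed the mean of *Mcm2* to *Mcm7* most closely over the 8 mice were *Chaf1a* (r = 0.98), a subunit of the histone chaperone CAF-1, *Cndp2* (0.98), a dipeptidase, *Txndc5* (0.97), a protein disulfide isomerase, *G6pdx* (0.97), the first enzyme of the pentose phosphate pathway, *Rfc4* (0.96), a clamp loader subunit, and *4933417G07Rik* (0.96). *G6pdx* was at log2 signals of 0.36, 0.53, 0.60 and 0.84 in WT mice 1 to 4 and at 1.41, 1.48, 2.36 and 1.32 in KO mice 1 to 4. Its log2 fold change was 1.06 (SE 0.23), and 0.82 without KO mouse 3. Since likeness to a profile that is higher in KO mice and highest in KO mouse 3 picked these genes, their own contrast is a description here. After the genotype means were removed, the genes most like the helicase were *Smc2* (r = 0.99), a condensin subunit, *Snd1* (0.99), *Aplf* (0.98), a DNA repair factor, *Dnajc10* (0.98), an endoplasmic reticulum co-chaperone, *Ppp4r1* (0.97), a phosphatase regulatory subunit, and *Hexim1* (0.97), an inhibitor of P-TEFb. These 6 had small log2 fold changes, from -0.11 for *Ppp4r1* to 0.26 for *Smc2*, and none passed the test. The correlations rest on 8 mice that share the arrays' scaling, and are given without a p.

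The other genes of replication and the cell cycle were grouped in 7 lists of 121 genes, of which 105 were tested. Of these, 1 was called higher (0.952%, against 1.01% of all genes), and 0 lower in the limma fit. At an unadjusted p under 0.05, 13 were higher (12.4%, against 5.74% of all genes) and 2 lower (1.9%, against 8.2%), and the unpaired t test called 0 of the 105 and 139 of all genes. The log2 fold change was positive for 73 of the 105 (69.5%, against 42.1%), and the 4 KO values lay above all WT values for 6 of them (5.71%, against 3.85%).

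Among 18 other origin, MCM-related and Cdt1-control genes tested, 9 had a positive log2 fold change (50%, against 42.1% of all genes), and the median was -0.01. *Dtl*, the receptor of the ligase that marks Cdt1 for destruction, was at log2 signals of -3.92, -4.03, -5.20 and -3.90 in WT mice 1 to 4 and at -3.34, -2.93, -2.04 and -3.22 in KO mice 1 to 4. All KO values lay above all WT values, and the log2 fold change of *Dtl* was 1.37 (SE 0.37; limma adjusted p = 0.175), the only call of these lists. It met the limit for testing through the KO arrays alone, since it was not well above background in WT mouse 3, so that the test favored this direction and the call is a description only. The call was lost without a filter (limma adjusted p = 0.382), and *Dtl* was not tested where all 8 arrays had to be above background. It was 0.41 with normexp background correction, and kept its call in 1 of the 8 fits that left out a mouse, that without WT mouse 4 (limma adjusted p 0.183 to 0.307). The smallest value of the list was that of *Mcm10*, which helps to activate the helicase, with -0.28 (SE 0.22; adjusted p = 0.637). *Kat7*, a histone acetyltransferase that acts with the origin complex, was the only gene of the lists lower in every KO mouse, with -0.22 (adjusted p = 0.190, fold under 1.5).

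Among the 11 genes of helicase activation tested, 8 were positive (72.7%, against 42.1% of all genes), and the median was 0.11. None was called by limma or the t test, and 0 reached an unadjusted p under 0.05. The list ran from *Dbf4*, the regulatory subunit of the Cdc7 kinase, with a log2 fold change of -0.39 (SE 0.27), to the GINS subunit *Gins1* with 0.27 (SE 0.14).

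The replisome genes leaned one way without a call. Of 23 tested, 22 had a positive log2 fold change (95.7%, against 42.1% of all genes) with a median of 0.20. An unadjusted p under 0.05 was reached by 5, all higher (21.7%, against 5.74% of all genes). *Chaf1a* was at log2 signals of -2.42, -2.45, -2.64 and -2.23 in WT mice 1 to 4 and at -2.14, -1.57, -1.07 and -2.06 in KO mice 1 to 4, and its log2 fold change was 0.72 (SE 0.23; limma adjusted p = 0.235), the largest of the list, but 0.41 with normexp background correction, below the 0.42 of *Prim1* in that setting. The KO values lay above all WT values, narrowly so in mice 1 and 4. All KO values also lay above the WT values for *Prim1*, the catalytic subunit of primase, with 0.52 (adjusted p = 0.144, fold under 1.5) and for *Rfc4* with 0.30 (adjusted p = 0.187, fold under 1.5). *Pcna*, the sliding clamp, was at 3.30, 3.42, 3.36 and 3.49 in WT mice 1 to 4 and at 3.28, 3.49, 3.75 and 3.45 in KO mice 1 to 4. These ranges overlapped, for a log2 fold change of 0.10 (SE 0.11; adjusted p = 0.732), which was 0.02 without KO mouse 3, 0.17 without KO mouse 1 and 0.05 with normexp background correction. The only negative value was that of *Pola2*, a subunit of DNA polymerase alpha, with -0.52 (SE 0.28; adjusted p = 0.493), which was well above background in all 4 WT and 2 KO mice.

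All 7 genes of nucleotide supply were positive (100%, against 42.1% of all genes), with a median of 0.25, but none was called. At an unadjusted p under 0.05, 3 were higher (42.9%, against 5.74% of all genes). The largest log2 fold change was that of *Dck*, deoxycytidine kinase, with 0.44 (SE 0.13; limma adjusted p = 0.207). *Dut*, which removes dUTP, was higher in every KO mouse, with 0.23 (adjusted p = 0.234).

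Of the 22 G1/S regulators tested, 9 were positive (40.9%, against 42.1% of all genes), the median was -0.03 and 0 were called. An unadjusted p under 0.05 was reached by 3, all higher (13.6%, against 5.74% of all genes). *Ccnd1*, the cyclin that starts the passage through G1 phase, was at log2 signals of 2.01, 2.46, 2.07 and 3.23 in WT mice 1 to 4 and at 3.12, 3.41, 3.99 and 2.98 in KO mice 1 to 4. Only WT mouse 4 reached into the KO range, and the log2 fold change was 0.93 (SE 0.31; limma adjusted p = 0.256). Without that mouse it was 1.19 (adjusted p = 0.121) and past the thresholds, and with normexp background correction it was 0.89 (adjusted p = 0.197) and likewise past them. *Rbl1* (p107), a pocket protein that binds E2F factors and an E2F target itself, was higher in every KO mouse, with 0.79 (SE 0.24; adjusted p = 0.219), and 0.45 with normexp background correction. *Ccne1*, the cyclin of S phase entry, had -0.20 (adjusted p = 0.793), and *Cdkn1a* (p21) had the smallest value, -0.30 (SE 0.27; adjusted p = 0.694).

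Of 24 genes of G2/M and mitosis, 15 were tested and 14 were positive (93.3%, against 42.1% of all genes), with a median of 0.14. None was called by limma or the t test, and 0 reached an unadjusted p under 0.05. *Mki67*, the gene of the proliferation marker Ki-67, was at log2 signals of -1.84, -0.84, -1.54 and -1.49 in WT mice 1 to 4 and at -1.89, -0.59, -1.26 and -1.55 in KO mice 1 to 4. WT mouse 2 and KO mouse 2 were highest, and the genotypes overlapped fully, for a log2 fold change of 0.10 (SE 0.30; limma adjusted p = 0.915). It was -0.14 without KO mouse 2, -0.03 without WT mouse 1, 0.29 without KO mouse 1 and 0.30 without WT mouse 2, so that it had no settled direction. *Mki67* was thus not highest in KO mouse 3, and its correlation with the mean of *Mcm2* to *Mcm7* over the 8 mice was 0.40, beside 0.82 for *Pcna* and 0.92 for *Ccnd1*. The list ran from *Cks1b*, a partner of cyclin-dependent kinases, with -0.30 (SE 0.22) to *Ccnb1*, cyclin B1, with 0.39 (SE 0.35). The 9 targets of p53 had a median of -0.01 and 0 calls. At an unadjusted p under 0.05, 1 was lower (11.1%, against 8.2% of all genes). Their values lay between *Phlda3* with -0.50 (SE 0.21) and *Trp53inp1* with 0.31 (SE 0.30).

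**Figure D5:**
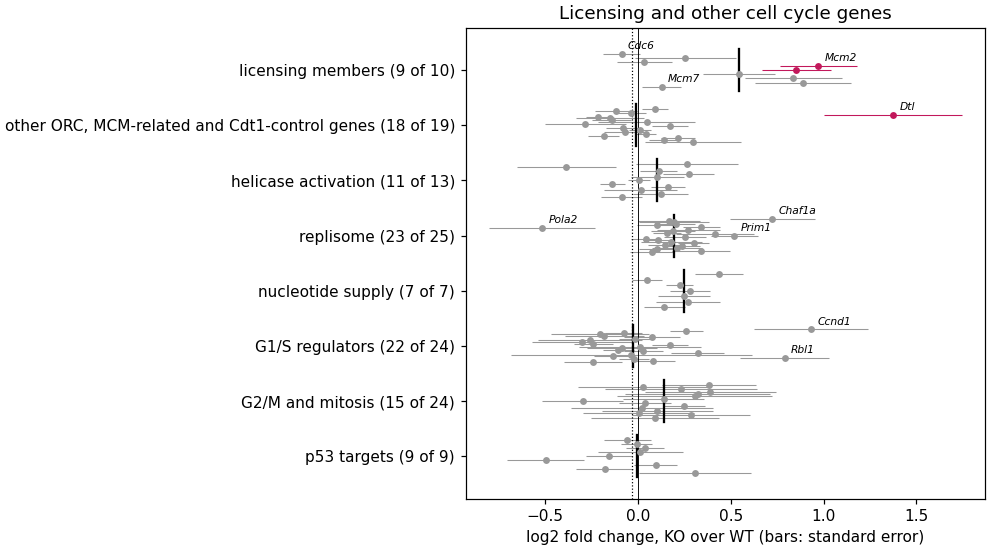
Log2 fold change of KO over WT (horizontal axis) for the tested genes of the licensing set and of 7 other lists, with the number tested of all genes of the list in brackets, bars for the standard error, magenta for genes past the thresholds, thick lines for list medians and a dotted line for the median of all genes tested. The licensing genes have a median of 0.55, and the other lists have medians between -0.03 and 0.25.

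Markers of the cell types of a liver were measured beside these genes. Of the 6 hepatocyte markers none was called, and their summed linear signal, in multiples of the 75th percentile, was 2827 ± 110 in WT and 2816 ± 91.3 in KO mice (SD, n = 4 each), with *Alb*, the brightest, at a log2 fold change of -0.01 (limma adjusted p = 0.969). Among 6 macrophage markers *Marco*, a scavenger receptor, fell, with a log2 fold change of -1.22 (SE 0.25; adjusted p = 0.098), whereas *Cd5l*, the brightest, had -0.07. The *Marco* call was lost without WT mouse 3 or KO mouse 2 (-1.06 and -1.21, limma adjusted p = 0.210 and 0.211). The summed macrophage signal was 88.6, 112, 119 and 145 in WT mice 1 to 4 and 74.7, 115, 124 and 111 in KO mice 1 to 4. The groups overlapped.

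The neutrophil sum was 1.68, 2.84, 1.51 and 3.95 in WT mice 1 to 4 and 0.790, 1.32, 2.19 and 1.42 in KO mice 1 to 4, with *S100a9* brightest (log2 fold change -0.89; limma adjusted p = 0.419) and *Ngp* dim on all arrays. The erythroid sum was 258, 292, 235 and 245 in WT mice 1 to 4 and 167, 241, 284 and 236 in KO mice 1 to 4, with *Hba-a1* brightest (log2 fold change -0.16; limma adjusted p = 0.752). In all 3 of these sums KO mouse 3 was the highest and KO mouse 1 the lowest of the KO mice. The licensing genes shared this order in part. Not every marker had it. Among the KO mice, the log2 signal of *Alas2* was lowest in KO mouse 3 (4.14). That of *Camp* was highest in KO mouse 1 (-2.41). The part of these cells in the licensing values was not tested. The WT and KO means were 2.49 and 1.43 for the neutrophil sum and 258 and 232 for the erythroid sum.

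No gene was called among the markers of B cells (*Cd79b* brightest, log2 fold change -0.08, *Cd79a* dim on all arrays), T and NK cells (*Cd3e* brightest, -0.14), bile duct (*Sox9* brightest, -0.64), stellate cells (*Dcn* brightest, -0.11) or endothelium (*Clec4g* brightest, 0.02). Their summed signals in WT and KO mice were 1.19 ± 0.206 and 1.09 ± 0.198 for B cells, 4.30 ± 0.251 and 4.12 ± 0.568 for T and NK cells, and 1.17 ± 0.128 and 1.01 ± 0.254 for the bile duct (SD, n = 4 each). Among the stellate cell markers *Lrat*, which esterifies retinol, was at log2 signals of 0.23, 0.25, 0.05 and 0.20 in WT mice 1 to 4 and at 0.19, 1.00, 0.96 and 0.59 in KO mice 1 to 4, with a log2 fold change of 0.50 (SE 0.17; limma adjusted p = 0.272). Only KO mouse 1 lay within the WT range, and the correlation of *Lrat* with the mean of *Mcm2* to *Mcm7* over the 8 mice was 0.90. The collagen gene *Col1a1* had a log2 fold change of -0.95 (SE 0.45; limma adjusted p = 0.417). Unlike *Lrat*, the remaining stellate cell markers correlated negatively with the mean of *Mcm2* to *Mcm7* over the 8 mice. The values were -0.53 (*Col1a1*), -0.47 (*Col3a1*), -0.22 (*Dcn*) and -0.18 (*Reln*). The summed signals were 102 ± 9.74 and 93.1 ± 3.54 for stellate cells and 80.0 ± 1.85 and 81.5 ± 6.21 for endothelium. The WT and KO means of these 5 sums differed by less than 1.5-fold, and their part in the licensing values was not tested.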

How the data were processed

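Liver RNA of 8 mice was measured on one-color arrays. Per the file headers, the authors deposited for each array the output of Agilent Feature Extraction 10.7.1.1, whose processed signal is a linear intensity per spot, corrected for background, with a median local background of 27 to 32 and a 75th percentile of 261 to 309. The authors also deposited a table of log2 values. It was compared with the values made here while outlier spots were still kept. The median difference was 0.0046 to 0.0085 per array. The largest difference of a probe was between 0.10 (WT mouse 2) and 0.54 (KO mouse 3). Control and outlier spots were left out, spots of a probe were averaged, and each array's 75th percentile over probes was subtracted from the log2 processed signals. Symbols came from the RefSeq table of GRCm38.p6 through transcript accessions, which named 32994 of 56605 probes. The files name an older build (mm9), and no probe coordinates are given. The fit was made with limma 3.58.1 (R 4.3.3), two-sided, over the 29068 probes that the 4 arrays of WT, of KO or of both all held well above background, with p-values adjusted over all of these by the Benjamini-Hochberg method. A call needed a change of more than 1.5-fold with an adjusted p under 0.2. A figure legend of the study gives both limits without saying whether its p was adjusted. By these limits, 273 probes were higher (0.939%) and 211 lower (0.726%). A gene is represented by its brightest probe.

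The members and lists were chosen with earlier results of these data known. Named were the members, *Agpat3*, *Pcna*, *Mki67*, *Ccnd1*, *Ccne1* and *Cdkn1a*, the called genes and those with the largest and smallest log2 fold change of each pathway list, the brightest and called markers, and the genes most like the mean of *Mcm2* to *Mcm7*. *Prim1*, *Rbl1*, *Dut* and *Kat7* were named after their values were seen. So were *Ngp*, *Cd79a*, *Lrat*, *Col1a1*, *Chaf1b*, *Rbl2*, *Hmmr*, *Recql4* and the markers whose correlations are given. Some single genes covered here are not reported. The alternatives were another background correction, scaling, filter, test, threshold and probe rule, a replicate block, and each mouse left out. Mice with the same number were not taken as pairs, since their deviations correlated at 0.33, -0.11, 0.10 and 0.32. Each array held the liver RNA of a separate mouse, and the number of arrays limits the precision. The test was checked on simulated data with 200 of 29068 probes changed and independent noise for each probe. Covariation between genes was not part of that simulation. At a log2 change of 1 it recovered 87.5% of the changed probes, and 25 of 200 calls were false. At 1.5 it recovered 96%, and 20 of 212 calls were false. Without a change it made 0 calls.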

Additional observations from a re-analysis of the deposited data

Results flagged for a closer look

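In 58 groups of 4 mice examined, 1 mouse stood apart from the other 3 in 3 cases by Dixon's criterion at the 95% level, which chance alone meets in about 1 of 20 groups. *Cdt1* was at a log2 signal of -0.11 in WT mouse 1 and at 0.65 to 0.70 in the other WT mice, and its log2 fold change was 0.06 without that mouse. *Dtl* was at -5.20 in WT mouse 3, where it was not well above background, and at -4.03 to -3.90 in the other WT mice. *G6pdx* was at 2.36 in KO mouse 3 and at 1.32 to 1.48 in the other KO mice.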

How the results depend on the processing

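Of 171 alternative values for the members, 52 equal the value reported, since those settings left that gene's values as they were. Of the 119 others, 118 differed by less than the spread between mice, and 1 did not, *Mcm2* after normexp background correction on the median spot signal (0.54). The median log2 fold change of the members was 0.49 to 0.56 over the settings and 0.35 to 0.67 with a mouse left out, and that of *Agpat3* -6.16 to -5.77 and -6.25 to -6.05. The probes called higher and lower were 181 and 65 with normexp, 123 and 132 without a filter, 208 and 126 with only probes above background on all arrays, 166 and 104 with the unpaired t test, 82 and 35 at an adjusted p under 0.05, 555 and 635 without a minimum fold, and 153 to 334 and 106 to 309 with a mouse left out. Of the 105 other replication genes, 0 were called higher without a filter, with the stricter filter, with the t test and at an adjusted p under 0.05, 2 (*Dtl* and *Rbl1*) with a trend and robust eBayes and with the mean of a gene's probes, 3 higher (*Dtl*, *Prim1* and *Rfc4*) and 1 lower (*Kat7*) without a minimum fold, and 0 to 2 higher with a mouse left out. With normexp the 1 gene called was *Ccnd1*. *Marco* lost its call without a filter (adjusted p = 0.233). With a replicate block for the mouse number, 327 probes were higher and 265 lower, 3 members were called, and *Rbl1* (adjusted p = 0.0826) was called in place of *Dtl* (0.267). No member was called without a filter or at the stricter adjusted p, nor when WT mouse 2, WT mouse 3 or KO mouse 2 was left out. The 75th percentile over spots, which was chosen after seeing the data, called 3 members. The cause of these differences was not tested. The number of arrays, and signal near background for *Orc1* and *Dtl*, limit what could be seen.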
